A study of Mus musculus with 12 samples.

Results

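The genes examined here encode the core of polyamine metabolism, namely Odc1, Amd1, Srm, Sms, Sat1, Oaz1, Oaz2 and Azin1. They were chosen by gene symbol, and are 8 of 24439 genes with a value in each of 12 RNA-Seq libraries. The libraries came from mouse CD4 T blasts (TB), which are splenic CD4 T cells driven into division with 2 ug/ml of the lectin concanavalin A for 40 h and then kept in 50 U/ml of the growth factor IL-2 for 2 days per the labels (the methods give 30 h before IL-2 was withdrawn). All cells came from C42 mice, which carry a fragment of the human IL3/CSF2 locus on a C57BL/6 background (C57BL/6 C42 in the labels of all 12 libraries, back-crossed to C57BL/6J in the methods), and no age or sex is given in the sources used here. There were 3 libraries of each of 4 groups. TB IL-2 cells stayed in IL-2, and TB IL-2nil cells had IL-2 removed for 16 h. TB+ IL-2 and TB+ IL-2nil cells were cultured in the same ways and were further stimulated with PMA and a calcium ionophore (PMA/I, 20 ng/ml and 2 uM for 2 h in the methods). The methods do not say whether IL-2 was in the medium during stimulation. For stimulated cells, with or without IL-2 thus refers below to the culture before it. The labels do not say whether replicates came from separate mice, so P-values measure the spread between these libraries only.

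The libraries labelled TB IL-2nil replicate 3 and TB+ IL-2 replicate 3 were placed in each other's group, as their columns are named in the expression list that the study supplies with its article. The transcript of Il2, a gene that PMA/I induces, was at 0.997 TPM in the library labelled TB+ IL-2 replicate 3 and at 3539 TPM in the library labelled TB IL-2nil replicate 3. With this placement Il2 was between 0 and 4.17 TPM in the unstimulated libraries and between 3539 and 8949 TPM in the stimulated ones. In what follows, the third TB IL-2nil value is from the library labelled TB+ IL-2 replicate 3, and the third TB+ IL-2 value is from the library labelled TB IL-2nil replicate 3. Results are also given with both libraries under their own labels and with both left out. The deposited tables hold FPKM and no read counts, so the depth is known only in relative terms, from 0.408 of that of the median library for TB IL-2nil replicate 2 up to 1.25, a 3.05-fold range. Of the markers of other cells, 4 B cell genes summed to between 23.2 and 29.6 TPM in TB IL-2nil and to between 2.36 and 12.7 TPM elsewhere, whereas 5 T cell genes (Cd3d, Cd3e, Cd3g, Cd2 and Cd4) summed to between 1373 and 2257 TPM. The 2 CD8 T cell genes summed to 6.91 to 31.9 TPM over all libraries, 3 kept myeloid genes to at most 4.88 TPM, and no NK cell marker was above 0.295 TPM. The part of the B cell signal in the differences below was not tested.

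Polyamines are small, positively charged molecules that bind nucleic acids and are needed for growth and translation. Ornithine decarboxylase makes putrescine, and spermidine synthase and spermine synthase then add aminopropyl groups that are supplied by decarboxylated S-adenosylmethionine. The pathway is kept in check by antizymes, which bind ornithine decarboxylase, send it to the proteasome and are themselves made by a ribosomal frameshift that polyamines favour. T cells that enter division are known to take up and make more polyamines. RNA levels as measured here do not show antizyme synthesis or enzyme stability.

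For 3 of the 8 genes, Amd1, Oaz1 and Sms, reads can be shared with a near-identical copy. Sequences are shown for Amd1 and Oaz1, each of which is also given as a sum with 1 copy. Amd1 encodes S-adenosylmethionine decarboxylase, the source of the aminopropyl donor, on chromosome 10 (mm9 chr10:40007265-40021992, minus strand, 8 exons in GENCODE M1). Amd2 (chr10:35428497-35431697, minus strand) is a single-exon gene whose 1005-base coding sequence differs from that of Amd1 at 1 position, the substitution G796C counted from the first coding base. The coding windows around it are printed from Amd1 (chr10:40009963-40010022, exonic, minus strand) and from Amd2 (chr10:35430541-35430600, exonic, minus strand), with the differing base in capitals.
Amd1: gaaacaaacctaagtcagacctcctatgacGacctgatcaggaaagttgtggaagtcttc
Amd2: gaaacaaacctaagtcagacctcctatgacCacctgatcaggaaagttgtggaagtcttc
The longest stretch that the coding sequences share without a difference was 795 bases, and the whole transcripts of 3203 and 3201 bases aligned at 99.6% identity, with 10 mismatches and 4 gaps. A read that covers none of these differences matches both genes equally well. In all, the Amd1 coding sequence had 4 copies at or above 95% identity over 80% of its length. Among them were the pseudogenes Amd-ps4 at 99.5% and Amd-ps1 at 96.6% identity. Only Amd2 is part of the sum below, and reads given to the other copies were not examined.

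Oaz1 encodes antizyme 1 (chr10:80289401-80292035, plus strand, 6 annotated exon blocks). Its best match elsewhere lay at chr17:17482420-17483104 on the minus strand, where GENCODE M1 annotates the pseudogene Gm9786, a synonym of Oaz1-ps in RefSeq. The 685 coding bases of Oaz1 and this copy differ at 1 position, the substitution G125C. The windows around it are shown from the first exon of Oaz1 (chr10:80289591-80289650, plus strand) and from the copy (chr17:17482959-17483018, minus strand), again with the differing base in capitals.
Oaz1: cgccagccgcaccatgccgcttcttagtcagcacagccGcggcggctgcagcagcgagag
Oaz1-ps: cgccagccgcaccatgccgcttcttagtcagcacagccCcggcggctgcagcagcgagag
The frameshift site of antizyme 1 is a serine codon followed by a stop codon, given in capitals in this exonic stretch of Oaz1 (chr10:80291010-80291069, plus strand), and the copy carries all 60 bases unchanged.
Oaz1 frameshift site: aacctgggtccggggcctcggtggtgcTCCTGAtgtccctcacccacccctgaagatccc
Among the other members, the coding sequence of Sms had a copy without a mismatch on chromosome X (chrX:60028760-60029860, Gm14680, which is Sms-ps in RefSeq). Odc1 had 3 copies of at most 97.1% identity, Oaz2 had 1 of 98.0% identity, and no copy at or above 95% identity over 80% of the coding sequence was found for Srm, Sat1 or Azin1. Values of Amd1, Oaz1 and Sms are thus uncertain as values of 1 locus. Whether reads of Odc1 and Oaz2 are shared with their less similar copies was not tested. Small RNA genes are annotated within Odc1 (SNORA42) and Oaz1 (Mir1982).

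Odc1, the ornithine decarboxylase gene (chr12:17551679-17558308, plus strand), was among the most abundant members, with a mean of 389 TPM over the 12 libraries, above 97.6% of the 12442 genes tested. In the TB IL-2nil libraries it was at 54.2, 80.9 and 53.1 TPM. In the TB IL-2 libraries it was at 171, 197 and 139 TPM. After PMA/I it reached 634, 507 and 410.5 TPM in TB+ IL-2, and 1038, 805 and 581 TPM in TB+ IL-2nil. The first 3 groups in this order did not overlap, while the lowest TB+ IL-2nil library fell within the range of TB+ IL-2. The highest and lowest group means, 808 ± 229 and 62.8 ± 15.7 TPM (SD, n = 3 each), were 12.9-fold apart.

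Srm, the spermidine synthase gene (chr4:147965612-147969102, plus strand), followed the same order over a wider range. Its level was 16.7, 4.51 and 9.26 TPM in TB IL-2nil, and 45.4, 134 and 73.5 TPM in TB IL-2. It was 174, 217 and 163 TPM in TB+ IL-2 and 267, 294 and 158 TPM in TB+ IL-2nil. The group means ran from 10.2 ± 6.13 to 239 ± 72 TPM (SD, n = 3 each), a 23.6-fold span, and again only the 2 stimulated groups overlapped among neighbours. Within the unstimulated groups the spread was wide, at 53.8% of the mean in TB IL-2 and 60.4% in TB IL-2nil. The lowest value came from TB IL-2nil replicate 2, the library with the least relative depth.

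Sms, the spermine synthase gene (chrX:153881787-153930219, minus strand), kept that order of groups over a narrower range, with means 2.49-fold apart. It was at 21.8, 15.3 and 13.5 TPM in TB IL-2nil and at 24.1, 20.5 and 24.7 TPM in TB IL-2, and these groups overlapped. It was at 36.2, 37.7 and 35.3 TPM in TB+ IL-2 and at 43, 50.3 and 32.6 TPM in TB+ IL-2nil, which also overlapped. No stimulated library was as low as an unstimulated one.

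Amd1 and Amd2 were read almost entirely as Amd2. Amd1 was at 10.6 and 12.6 TPM in TB IL-2 replicates 1 and 3, and at 0.0479 to 0.14 TPM in the other 10 libraries, among them TB IL-2 replicate 2 at 0.0611 TPM. These 2 libraries gave 22.5% of the sum of both genes to Amd1, and no other library gave more than 0.635%. The sum of Amd1 and Amd2 was at 29.7, 22 and 24.9 TPM in TB IL-2nil and at 47.2, 91.5 and 56.1 TPM in TB IL-2. The sum was 98.4, 133 and 97.7 TPM in TB+ IL-2, and 143, 183 and 107 TPM in TB+ IL-2nil. The summed groups thus stood in the order of Odc1 and Srm, with an overlap of the stimulated groups alone.

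Sat1, which encodes the acetyltransferase that starts the breakdown and export of spermidine and spermine (chrX:151647675-151650992, minus strand), had a different order. It was lowest in TB IL-2, at 30.2, 24.6 and 20.6 TPM, and higher in TB IL-2nil, at 82.8, 77 and 78.6 TPM. It was at 157, 146 and 84.2 TPM in TB+ IL-2 and at 435, 202 and 282 TPM in TB+ IL-2nil. No neighbouring groups overlapped in this order, although the lowest TB+ IL-2 library, at 84.2 TPM, was close to the highest TB IL-2nil library, at 82.8 TPM. The means of the outer groups, 307 ± 118 and 25.2 ± 4.83 TPM (SD, n = 3 each), were 12.2-fold apart.

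**Figure D1:**
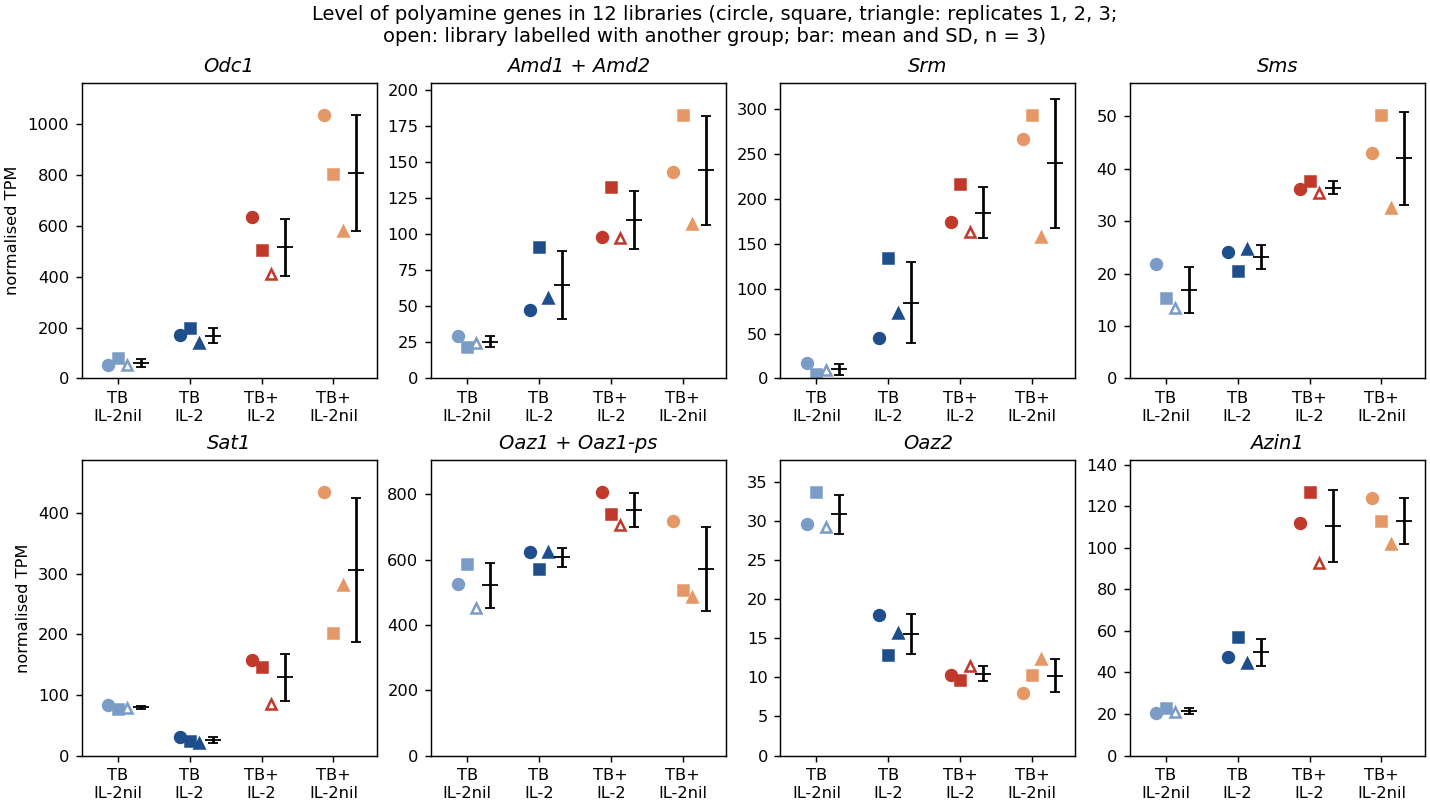
Level in normalised TPM (y axis, linear, from 0, own scale in each panel) of each gene in the 4 groups (x axis), where circles, squares and triangles are replicates 1, 2 and 3, open symbols are the 2 libraries placed against their label, and bars give the mean and SD of 3 libraries. The group means of Odc1, Srm, Sms, Azin1 and the sum of Amd1 and Amd2 rise from left to right and those of Oaz2 fall. For each of these the 2 stimulated groups overlap. Sat1 is lowest in TB IL-2, and the sum of Oaz1 and Oaz1-ps stays between 451 and 808 TPM.

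Azin1 encodes antizyme inhibitor 1, a relative of ornithine decarboxylase that takes antizyme away from it (chr15:38417185-38449021, minus strand). It was at 20.4, 23.1 and 21.1 TPM in TB IL-2nil, at 47.4, 57.2 and 44.7 TPM in TB IL-2, at 112, 127 and 92.6 TPM in TB+ IL-2, and at 124, 113 and 102 TPM in TB+ IL-2nil. Its groups had the order of Odc1, with an overlap of the stimulated groups alone. The spread within groups was at most 15.8% of the mean.

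Oaz2, which encodes the less abundant antizyme 2 (chr9:65515808-65538107, plus strand), ran the opposite way. It was highest in TB IL-2nil, at 29.6, 33.7 and 29.2 TPM, and lower in TB IL-2, at 18, 12.9 and 15.7 TPM. After PMA/I it was at 10.3, 9.65 and 11.5 TPM in TB+ IL-2 and at 8.01, 10.3 and 12.3 TPM in TB+ IL-2nil. Neither unstimulated group overlapped another group.

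Oaz1, the most abundant member with a mean of 439 TPM, had overlapping neighbours throughout, and its group means lay within 1.44-fold. It was at 386, 263 and 451 TPM in TB IL-2nil, 433, 516 and 613 TPM in TB IL-2, 515, 322 and 685 TPM in TB+ IL-2, and 318, 297 and 469 TPM in TB+ IL-2nil. The highest library of each group was replicate 3. The share of the summed level given to Oaz1-ps followed the replicate number and not the group, at 0.00395% to 3.68% of the sum in the 4 libraries of number 3 and at 9.95% to 56.5% in the 8 libraries of numbers 1 and 2. The sum with Oaz1-ps was 525, 587 and 451 TPM in TB IL-2nil, 624, 573 and 625 TPM in TB IL-2, 808, 739.9 and 707 TPM in TB+ IL-2, and 718, 508 and 487 TPM in TB+ IL-2nil.

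**Figure D2:**
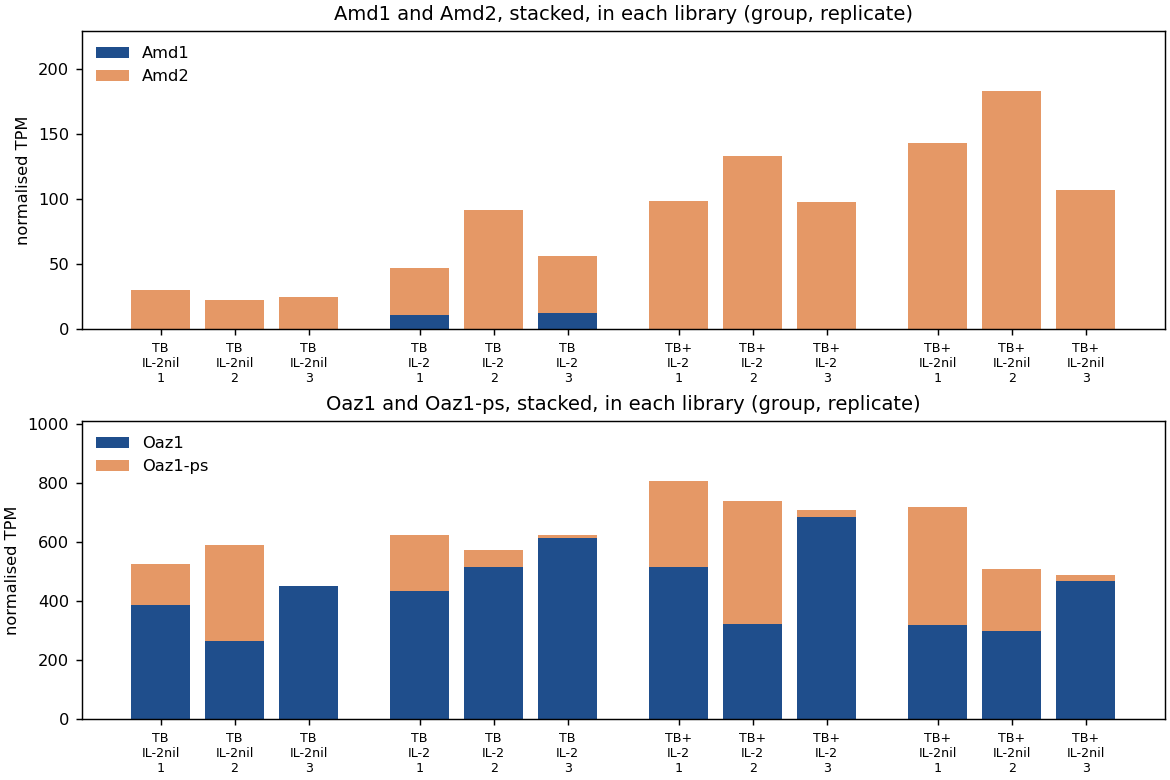
Stacked bars of normalised TPM (y axis, linear, from 0) in each of the 12 libraries (x axis, group and replicate) for Amd1 with Amd2 (top) and Oaz1 with Oaz1-ps (bottom). Amd1 is visible in TB IL-2 replicates 1 and 3 alone, and Oaz1-ps takes at most 3.68% of the lower bars in every replicate 3.

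The ratio of Odc1 to Oaz1 transcripts separated the groups only where the pseudogene Oaz1-ps was added to Oaz1. Odc1 transcripts per transcript of Oaz1 and Oaz1-ps together numbered 0.103, 0.138 and 0.118 in TB IL-2nil and 0.273, 0.343 and 0.222 in TB IL-2. They numbered 0.784, 0.685 and 0.581 in TB+ IL-2 and 1.44, 1.58 and 1.19 in TB+ IL-2nil. None of the 4 groups overlapped in this ratio of levels, for which no test was run. Per transcript of Oaz1 alone, the unstimulated groups overlapped (0.308 in TB IL-2nil replicate 2 and 0.226 in TB IL-2 replicate 3). The stimulated groups did as well (1.57 in TB+ IL-2 replicate 2 and 1.24 in TB+ IL-2nil replicate 3). How many ratios of other genes separate the groups was not counted.

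The first comparison asked what IL-2 does to these genes in unstimulated T blasts. With IL-2, Odc1, Srm and Azin1 were higher and Sat1 and Oaz2 were lower, and no library of these genes crossed between the groups. How many of all genes separate in this way was not counted, here or in the later comparisons. In limma across all 12442 genes, Srm rose by 2.96 ± 0.45 (log2 difference ± SE, adjusted P = 0.000694), Odc1 by 1.42 ± 0.26 (adjusted P = 0.00179) and Azin1 by 1.16 ± 0.16 (adjusted P = 0.000434). Sat1 fell by 1.64 ± 0.29 on this scale (adjusted P = 0.00171), and Oaz2 fell by 0.95 ± 0.18 (adjusted P = 0.00207). The sum of Amd1 and Amd2 rose by 1.27 ± 0.27 (adjusted P = 0.00397). As 1 is added to each TPM value before the log2, changes of genes at low levels come out smaller than they are. Amd1 alone also passed (2.32, adjusted P = 0.0255). Its call rested on TB IL-2 replicates 1 and 3, with 1.77 (adjusted P = 0.0868) without the former, 1.66 (adjusted P = 0.103) without the latter and 3.54 without TB IL-2 replicate 2. Leaving out any of the 3 TB IL-2nil libraries also ended that call.

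Sms differed by 0.45 (95% interval 0.01 to 0.9, adjusted P = 0.0974), and by 0.64 with an adjusted P of 0.0315 without TB IL-2nil replicate 1. Oaz1 differed by 0.53 (95% interval -0.14 to 1.19, adjusted P = 0.186). With the replicate number as a block Oaz1 passed at an adjusted P of 0.0388, while its sum with the pseudogene stayed at 0.23 ± 0.17 (adjusted P = 0.32, and 0.233 with the block). In all, 4 of 8 members rose and 2 fell at an adjusted P under 0.05, against 39.6% of all genes tested, of which 17.3% rose and 22.3% fell. Past 3-fold as well were Srm and Amd1 upwards and Sat1 downwards (4.69% and 2.73% of all genes). The median difference was 0.85 for the members and -0.13 for all genes. With both relabelled libraries left out, Odc1 (1.32, adjusted P = 0.00989), Srm (2.97), Azin1 (1.15), Sat1 (-1.65) and Oaz2 (-0.99) still passed and Amd1 did not (adjusted P = 0.0716). Of all genes 32.3% then passed. Under the labels no member passed in limma, where 0.121% of all genes passed, with Odc1 at 0.45 and Sat1 at -1.67. At an unadjusted P under 0.05 in that fit 1 member was higher and 1 lower, a threshold at which all genes were not counted.

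The second comparison was of PMA/I stimulation of cells that had been kept in IL-2. Sat1 rose the most, by 2.28 ± 0.29 (adjusted P = 0.000237), followed by Odc1 (1.60 ± 0.26, adjusted P = 0.000945) and Azin1 (1.13 ± 0.16, adjusted P = 0.00045), without any overlap of libraries. Sms rose by 0.64 ± 0.20 (adjusted P = 0.0305) and the sum of Amd1 and Amd2 by 0.79 ± 0.27 (adjusted P = 0.0407), and Oaz2 fell by 0.52 ± 0.18 (adjusted P = 0.0416). The calls of these last 3 were thin. That of Sms was lost without any one of the 6 libraries compared (0.56 to 0.69, adjusted P 0.055 to 0.0916), that of the sum in 7 of 12 such fits (adjusted P 0.0502 to 0.147), and that of Oaz2 in 9 of 12 (-0.58 to -0.41, adjusted P 0.0509 to 0.144). Srm differed by 1.25 (95% interval 0.26 to 2.24, adjusted P = 0.051), with separate groups and with a difference of 1.65 (adjusted P = 0.019) without TB IL-2 replicate 2. It also passed without TB IL-2nil replicate 1, without TB IL-2nil replicate 2 or without TB+ IL-2nil replicate 3, with adjusted P of at most 0.0486.

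Oaz1 differed by -0.09 (95% interval -0.75 to 0.57). Its sum with Oaz1-ps differed by 0.31 ± 0.17 (adjusted P = 0.199), with no overlap of the groups. Amd1 differed by -2.39 (adjusted P = 0.025), again through TB IL-2 replicates 1 and 3 (-1.83 and -1.73 without one or the other, adjusted P 0.098 and 0.097, and -3.61 without TB IL-2 replicate 2), and against the direction of its sum with Amd2. By count, 4 members rose and 2 fell, or 5 and 1 with Amd1 and Oaz1 summed with their copies, where 35.1% of all genes passed, 11.8% upwards and 23.3% downwards. Upward calls were thus 33.6% of all calls, and 46.4% with quantile normalization. Sat1 and Odc1 upwards and Amd1 downwards were also past 3-fold (3.94% and 3.10% of all genes). The medians were 0.89 for the members and -0.22 for all genes. Without both relabelled libraries, Sat1 (2.56), Odc1 (1.76) and Azin1 (1.26) passed and Sms (adjusted P = 0.0551), Oaz2 (0.0688) and the sum of Amd1 and Amd2 (0.0723) did not. Of all genes 30.9% then passed. By the labels Sat1 alone passed (2.25, adjusted P = 0.024), with Odc1 at 0.63 (adjusted P = 0.813), and 0.498% of all genes passed.

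The third comparison was of the same stimulation after 16 h without IL-2. Srm rose by 4.54 ± 0.45 (adjusted P = 1.23e-05) and Odc1 by 3.65 ± 0.26 (adjusted P = 1.72e-06). Azin1 rose by 2.33 ± 0.16 (adjusted P = 1.57e-06), the sum of Amd1 and Amd2 by 2.43 ± 0.27 (adjusted P = 2.38e-05), Sat1 by 1.86 ± 0.29 (adjusted P = 0.000265) and Sms by 1.27 ± 0.20 (adjusted P = 0.000277). Oaz2 fell by 1.52 ± 0.18 (adjusted P = 3.43e-05). Each of these genes had the same direction in 3 of 3 pairs of equal replicate number and no overlap of groups. The share of all genes that did so was not counted. Oaz1 differed by -0.01 (95% interval -0.68 to 0.65) and its sum with the copy by 0.12 ± 0.17 (adjusted P = 0.574, and 0.57 with an adjusted P of 0.0497 without a filter on low values), while Amd1 was near 0 TPM on both sides. By count, 5 members rose and 1 fell, or 6 and 1 with the copies added, and 61.2% of all genes passed (20.1% upwards, 41.1% downwards). The 4 members past 3-fold, Srm, Odc1, Azin1 and Sat1, all rose (7.78% of all genes upwards, 10.7% downwards).

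All of the 6 calls held in each of the 12 fits that left out 1 library and with both relabelled libraries left out (Srm 4.55, Odc1 3.54, Azin1 2.32, Sat1 1.85, Sms 1.13, Oaz2 -1.56). With both left out 53.7% of all genes passed, and how many of all genes kept a call in all 12 fits was not counted. By the labels Sat1 alone passed (1.83, adjusted P = 0.0256), where 5.38% of all genes passed. Odc1 was then at 2.68 (adjusted P = 0.0903) and Srm at 3.20 (adjusted P = 0.125). The scale mattered for the whole transcriptome in this comparison. The median of all genes was -0.38, and -0.78 with TPM not scaled between libraries, where 17.6% and not 32.8% of all calls were upwards (43.5% with quantile normalization). Relative to the unscaled median each of the 6 genes kept its direction, and Sms alone no longer passed (0.73, adjusted P = 0.0766).

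**Figure D3:**
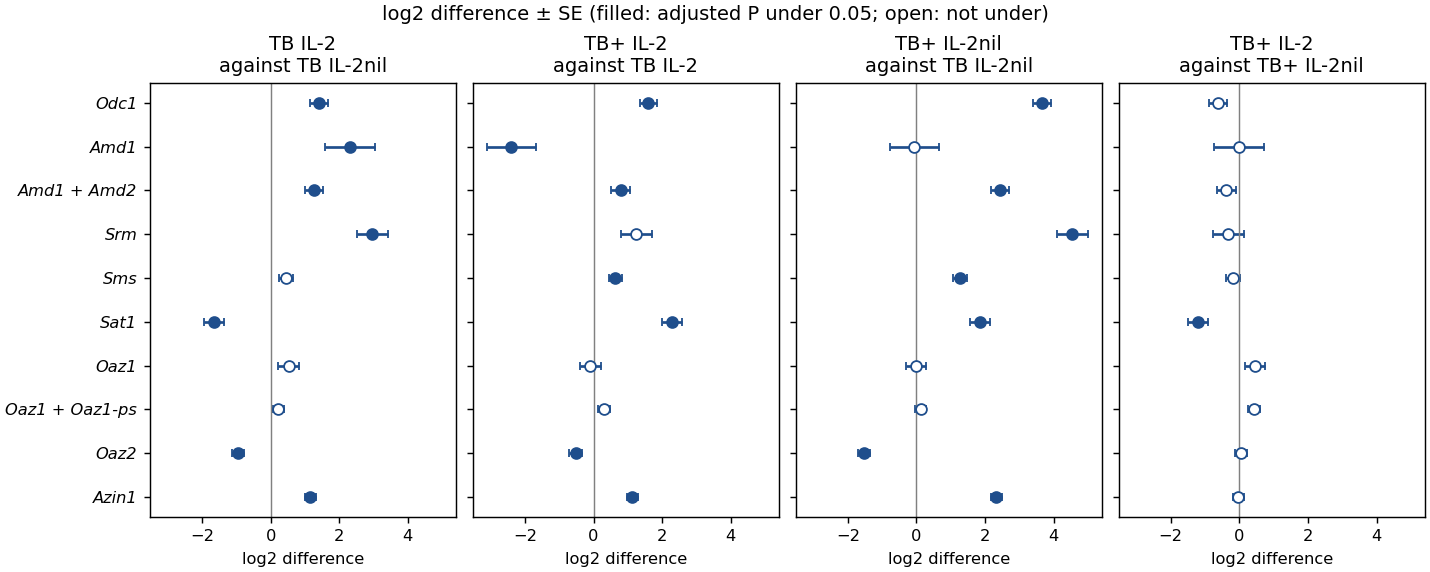
Log2 difference of normalised TPM + 1 (x axis, same scale in the 4 panels) with its SE for each member and the 2 sums (y axis), with filled points at an adjusted P under 0.05 in limma across all genes. Srm and Odc1 lie farthest to the right in the third panel, at 4.54 and 3.65, and Sat1 is the one filled point in the fourth, at -1.22.

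The last contrast of groups was between stimulated cells that had been kept in IL-2 and those that had been without it for 16 h before. Of the members, Sat1 was lower with IL-2 by a log2 difference of -1.22 ± 0.29 (adjusted P = 0.0146). This call was lost without the third TB+ IL-2 library (-0.94, adjusted P = 0.0595) or without TB+ IL-2nil replicate 1 (-0.93, adjusted P = 0.0557), as it was with both relabelled libraries left out (-0.94, adjusted P = 0.0821) and under the labels (-1.25, adjusted P = 0.106). Of all genes 9.71% passed with both left out and 0.217% under the labels. Odc1 was lower with IL-2 in 3 of 3 pairs, by a mean of -0.63 (95% interval -1.2 to -0.06, adjusted P = 0.11). With the replicate number as a block Odc1 passed at an adjusted P of 0.0303, and it passed at -0.84 (adjusted P = 0.0476) without TB+ IL-2nil replicate 3. The differences were -0.33 for Srm (95% interval -1.32 to 0.66), -0.38 ± 0.27 for the sum of Amd1 and Amd2, -0.18 for Sms (-0.62 to 0.27), -0.03 for Azin1 (-0.39 to 0.32), 0.05 for Oaz2 (-0.34 to 0.44) and 0.45 for Oaz1 (-0.21 to 1.11), and none of these passed. The sum of Oaz1 and Oaz1-ps differed by 0.42 ± 0.17 (adjusted P = 0.114). In limma 0 members rose and 1 fell at an adjusted P under 0.05, against 12.9% and 8.40% of all genes and 21.3% in either direction. At an unadjusted P under 0.05 the members numbered 0 and 2, and all genes were not counted there. No member was past 3-fold at an adjusted P under 0.05, where 3.21% of all genes were upwards and 0.41% downwards. The split of all calls also moved here, from 60.5% upwards to 96.1% with unscaled TPM. The median of all genes then went from -0.04 to 0.23, and Sat1 no longer passed.

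The effect of IL-2 itself differed between stimulated and unstimulated cells for several members. The interaction is the IL-2 difference in stimulated cells minus that in unstimulated cells. It was -2.05 ± 0.37 for Odc1 (adjusted P = 0.0198), -3.29 ± 0.64 for Srm (adjusted P = 0.0253), -1.20 ± 0.23 for Azin1 (adjusted P = 0.0251), -1.65 ± 0.38 for the sum of Amd1 and Amd2 (adjusted P = 0.0381) and 1.0 ± 0.25 for Oaz2 (adjusted P = 0.0495). By count 3 members were lower and 1 was higher, where 4.23% of all genes passed, 2.66% lower and 1.57% higher. Odc1 and Srm were lower by over 3-fold (1.28% of all genes, and 0.498% higher). Sat1, with lower levels in IL-2 in both states, had an interaction of 0.42 (95% interval -0.5 to 1.33, adjusted P = 0.582), Sms one of -0.63 (-1.26 to 0), Amd1 one of -2.33 (adjusted P = 0.202, and -3.55 with an adjusted P of 6.05e-05 without TB IL-2 replicate 2) and Oaz1 one of -0.08 (-1.01 to 0.86). The sum of Oaz1 and Oaz1-ps had an interaction of 0.19 ± 0.25 (adjusted P = 0.684). None of the 4 calls among members held with both relabelled libraries left out (Odc1 -1.78, adjusted P = 0.0894, Srm -3.22, 0.0938, Azin1 -1.06, 0.0949, Oaz2 0.98, 0.149), where 0.0324% of all genes passed. By the labels the estimates are equal by construction, because the exchange moves each library between cells of like sign, and all adjusted P were at least 0.914. Leaving out 1 library moved these estimates little but often ended the call. Of the 12 such fits, 3 lost the call of Odc1 (without TB IL-2 replicate 2, TB+ IL-2 replicate 2 or the third TB+ IL-2 library, -2.05 to -1.89, adjusted P 0.0513 to 0.0554). Likewise 6 lost that of Azin1 (-1.25 to -1.08, adjusted P 0.0514 to 0.0634) and 8 that of Srm (-3.41 to -2.86, adjusted P 0.0516 to 0.0657). The call of Oaz2 was lost in 10 (0.86 to 1.06, adjusted P 0.0736 to 0.124) and that of the sum in 10 (-1.79 to -1.37, adjusted P 0.0556 to 0.0953).

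Of 29 other genes of the pathway, 25 passed the filter (Slc7a2, Azin2, Oaz3 and Sat2 did not). With IL-2 in unstimulated cells 12 rose and 3 fell, against 17.3% and 22.3% of all genes, with a median of 0.6 (-0.13 over all genes). Amd2, the near-identical copy of Amd1, rose by 1.03 ± 0.32 (adjusted P = 0.0239). On the supply side, 4 of 6 tested genes of ornithine supply rose, among them the arginine transporter gene Slc7a1 (2.37 ± 0.27, adjusted P = 0.000136) and Aldh18a1, which makes the precursor of ornithine and proline (1.36 ± 0.28, adjusted P = 0.0032). Of 8 genes of S-adenosylmethionine supply and methionine salvage, 4 rose and 1 fell. Ahcy, which clears S-adenosylhomocysteine, rose by 1.46 ± 0.25 (adjusted P = 0.00146) and Mtap, which recycles the by-product of both aminopropyl transfers, by 1.44 ± 0.31 (adjusted P = 0.00429). Eif5a, whose protein carries the spermidine-derived hypusine, rose by 2.03 ± 0.21 (adjusted P = 0.000102). Smox, which encodes spermine oxidase, fell by 1.01 ± 0.19 (adjusted P = 0.00226). In transport, Slc3a2 rose by 0.96 ± 0.23 (adjusted P = 0.00777) and Atp13a3 by 0.60 ± 0.18 (adjusted P = 0.019). Atp13a2, a lysosomal polyamine exporter gene, fell by 0.68 ± 0.22 (adjusted P = 0.0278).

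PMA/I on cells kept in IL-2 raised 5 of the 25 and lowered 2, with a median of 0.01 (-0.22 over all genes). The list's share of calls was thus below the 35.1% of all genes that passed (11.8% upwards, 23.3% downwards). Slc7a1 rose by 2.00 ± 0.27 (adjusted P = 0.000281), Slc3a2 by 1.46 ± 0.23 (adjusted P = 0.000856), Mat2a, the catalytic subunit gene of methionine adenosyltransferase, by 1.39 ± 0.28 (adjusted P = 0.00307), Amd2 by 1.03 ± 0.32 (adjusted P = 0.0272), and Dhps, the first enzyme of hypusine formation, by 0.58 ± 0.18 (adjusted P = 0.0261). Mat2b, the regulatory subunit gene, fell by 1.05 ± 0.23 (adjusted P = 0.00507), and Atp13a2 by 0.71 ± 0.22 (adjusted P = 0.0267). Atp13a3 did not pass (0.38 ± 0.18, adjusted P = 0.119). After IL-2 withdrawal PMA/I raised 12 and lowered 7, with a median of 0.5 (-0.38 over all genes), where 20.1% of all genes rose and 41.1% fell. Slc7a1 went from a mean of 8.72 ± 3.09 TPM to 262 ± 70.9 TPM (SD, n = 3 each), a log2 difference of 4.77 ± 0.27 (adjusted P = 3.8e-07). Mat2a rose by 3.59 ± 0.28 (adjusted P = 2.88e-06) and Mat2b fell by 2.43 ± 0.23 (adjusted P = 9.2e-06). Slc3a2 rose by 2.56 ± 0.23 (adjusted P = 7.7e-06), Amd2 by 2.44 ± 0.32 (adjusted P = 7.15e-05) and Aldh18a1 by 1.0 ± 0.28 (adjusted P = 0.00832), and Atp13a2 fell by 1.55 ± 0.22 (adjusted P = 0.000114). Atp13a3 rose by 0.95 ± 0.18 (adjusted P = 0.000788). Eif5a rose by 2.20 ± 0.21 (adjusted P = 1.06e-05), while its paralogue Eif5a2 fell by 1.0 ± 0.24 (adjusted P = 0.00398) and the polyamine oxidase gene Paox by 1.17 ± 0.33 (adjusted P = 0.0102).

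In stimulated cells IL-2 left 4 of the 25 higher and 2 lower, a share near that of all genes (12.9% higher and 8.40% lower). Oat, the ornithine aminotransferase gene, was higher by 1.42 ± 0.17 (adjusted P = 0.000416), Ahcy by 1.46 ± 0.25 (adjusted P = 0.00298), Apip of the methionine salvage pathway by 1.26 ± 0.30 (adjusted P = 0.013) and Paox by 1.03 ± 0.33 (adjusted P = 0.0483), while Smox fell by 1.03 ± 0.19 (adjusted P = 0.00421) and Mat2a by 1.0 ± 0.28 (adjusted P = 0.0265). The difference in IL-2 effect passed for Slc7a1 (-2.77 ± 0.38, adjusted P = 0.0108), Mat2a (-2.20 ± 0.39, adjusted P = 0.0198), Eif5a (-1.67 ± 0.30, adjusted P = 0.0199) and Mat2b (1.38 ± 0.32, adjusted P = 0.0407), that is, for 3 genes downwards and 1 upwards, where 2.66% and 1.57% of all genes passed. With both relabelled libraries left out 0 of the 25 passed this test in limma (7 lower and 2 higher at an unadjusted P under 0.05). Under the labels 0 of the 25 genes passed in limma in any of the 5 contrasts. At an unadjusted P under 0.05 there were then 2 higher with IL-2 in unstimulated cells, 4 higher and 7 lower on PMA/I without IL-2, 3 higher and 1 lower with IL-2 in stimulated cells, and 0 in the other contrasts. All genes were not counted at that unadjusted threshold, so the unadjusted counts of this list cannot be set against a share of all genes.

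**Figure D4:**
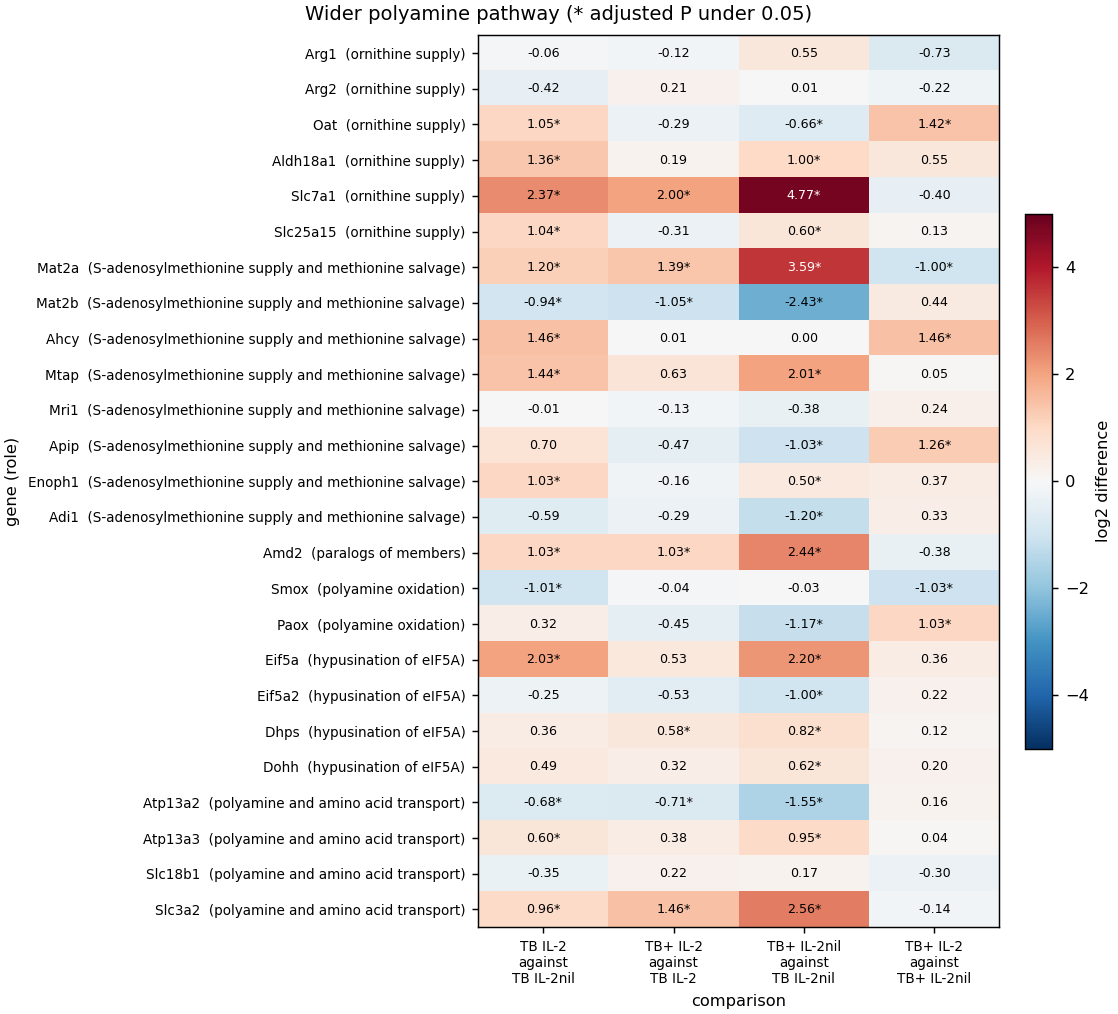
Log2 difference (colour and printed value, log2 of normalised TPM + 1) of the 25 other pathway genes that passed the filter (y axis, with their role) in the 4 comparisons (x axis), with a star at an adjusted P under 0.05. In the third column Slc7a1 (4.77) and Mat2a (3.59) have the largest increases and Mat2b (-2.43) has the largest decrease.

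The genes whose log2 levels over the 12 libraries were most like those of a member, among 7225 genes with a mean over 10 TPM, were sought as a description. The libraries fall into 4 groups, so these correlations largely follow the group means. For Odc1 they were Tgfb1 (Pearson's r = 0.992), Tnfaip8 (0.987) and Tnfrsf4 (0.986). For Srm they were Zmynd19 (0.99), Ctps (0.989) and Srsf7 (0.987), for Azin1 Cyp51 (0.993), Strap (0.989) and Larp1 (0.988), and for Sms Ikbkap (0.961), Rcl1 (0.96) and Piezo1 (0.959). Sat1 was most like Med13 and Inpp5a (0.986 each) and Vsir (0.983), and Oaz2 most like Mkrn1 (0.991), Nbr1 and Scp2 (0.988 each). The best partners were weaker for Oaz1, with Atn1 (0.847), Gsk3a (0.843) and Med25 (0.839), and for Amd1, with Ints7 (0.845), Agtpbp1 (0.837) and Stub1 (0.814).

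Promoters of 6 of the 8 members, 7 sequences from 250 bases before to 50 bases after the start, were matched in RefSeq (GRCm38.p6), and Srm and Azin1 were not matched. They were searched on both strands for the E-box CACGTG bound by MYC and MAX, for the STAT5 motif TTCNNNGAA, for the AP-1 motifs TGAGTCA and TGACTCA and for the NFAT core GGAAAA. The E-box was found once, in a promoter of Sms. It begins 196 bases before the start site and is given in capitals (chrX:157492448-157492513, minus strand, upstream of the gene).
Sms promoter: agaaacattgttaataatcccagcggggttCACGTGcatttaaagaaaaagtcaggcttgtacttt
GGAAAA was found in 1 promoter of Oaz1 and in the other promoter of Sms. No STAT5 or AP-1 match and no match of any kind for Odc1, Amd1, Sat1 or Oaz2 was found in these windows. Of all 32851 promoters of this length, 7.15% held the E-box, 8.30% the STAT5 motif, 5.20% an AP-1 motif and 23.4% GGAAAA.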

How the data were processed

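RNA-Seq of 12 libraries from rRNA-depleted, directional cDNA was performed by the authors. Per the labels and methods, reads were trimmed with Trimmomatic 0.32, aligned to mm9 with HISAT2 2.1.0 and quantified on RefSeq models with StringTie 1.3.3. The deposited values are FPKM per gene, with no counts and no scaling between libraries, although the methods name TPM. Here every library was brought to a total of 1000000 TPM. A gene was tested where any library exceeded 1 TPM (12442 genes). The 75th percentiles were equalised, and limma 3.58.1 under R 4.3.3 was run on log2(TPM + 1), with 1 mean per group and 8 residual degrees of freedom. A gene passed at a Benjamini-Hochberg adjusted P under 0.05 over all genes tested, and the script was tested on simulated data. Members, gene lists and tests were chosen with earlier results of these data known. All 8 members are named, and of the other pathway genes that passed, up to 2 per role and comparison with the largest change. Mat2a in stimulated cells with IL-2, and Atp13a3 throughout, were named after their values were seen. The correlation of deviations of libraries with the same replicate number was over 0.1 in 18 of 18 pairs (0.101 to 0.531), so a fit with the number as a block was run beside the main one. The labels do not say what the numbers share. Alternatives were the placement of 2 libraries, this block, the pseudocount, the filter, the scaling, a variance trend, the groups fitted and single libraries left out. The sums of Amd1 and Oaz1 with their copies were added after the data were seen. Copies were sought with BLAST+ 2.17.0 in mm9, motifs with Python 3.11.15, and figures drawn with matplotlib 3.10.9. Protein sequences were not analysed here.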

Additional observations from a re-analysis of the deposited data

Results flagged for a closer look

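For 4 members and 1 sum, a test of the difference itself found that the effect of IL-2 differed between stimulated and unstimulated cells (the interaction in limma across all genes, log2 scale). It was -2.05 for Odc1 (adjusted P = 0.0198), -3.29 for Srm (adjusted P = 0.0253) and -1.20 for Azin1 (adjusted P = 0.0251). It was -1.65 for the sum of Amd1 and Amd2 (adjusted P = 0.0381) and 1.0 for Oaz2 (adjusted P = 0.0495). Over all genes, 4.23% passed this test. Of the 5, none passed with both relabelled libraries left out, and by the labels each had an adjusted P of 0.914. Among the 12 fits that left out 1 library, the call was lost in 3 for Odc1, 8 for Srm and 6 for Azin1. It was lost in 10 for the sum and in 10 for Oaz2.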

How the results depend on the processing

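Of 1190 refitted differences of members and sums, leaving aside the sample labels, 1029 kept direction and side of the threshold, 113 lost a call, 15 gained one and 33 turned direction, each of the last for a difference that had not passed. The cause of these changes was not tested. No read counts were available, so counting error could not be given for low values such as those of Amd1.

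By the sample labels, members that rose and fell numbered 0 and 0 with IL-2 in unstimulated cells, 1 and 0 on PMA/I with IL-2, 1 and 0 on PMA/I without IL-2, 0 and 0 for IL-2 in stimulated cells, and 0 and 0 for the interaction, and the other pathway genes that passed were 0 in each. Of all genes 0.121%, 0.498%, 5.38%, 0.217% and 0% passed in these contrasts, in the same order. Srm on PMA/I with IL-2 then turned to -0.09, Amd1 for IL-2 in stimulated cells to 0.02, and the sum of Oaz1 and Oaz1-ps on PMA/I without IL-2 to -0.10. With both relabelled libraries left out, 0 members fell on PMA/I with IL-2, 0 fell for IL-2 in stimulated cells, and 0 passed in the interaction. Of the other pathway genes 3 rose and 1 fell on PMA/I with IL-2, 2 rose and 1 fell for IL-2 in stimulated cells, and 0 passed in the interaction. Of all genes 30.9%, 9.71% and 0.0324% passed in these contrasts, in the same order. Oaz1 then turned to 0.15 on PMA/I without IL-2, and Oaz2 (-0.01) and Azin1 (0.09) turned for IL-2 in stimulated cells.

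With the replicate block, 2 members and not 1 fell for IL-2 in stimulated cells, the second being Odc1, and Oaz1 passed for IL-2 in unstimulated cells. The block changed no other call of a member or sum. Over all genes, the interaction passed upwards and downwards for 195 and 331 genes, against 760 and 718 with the block, 62 and 179 at a pseudocount of 0.1, 126 and 267 at 0.5, 11 and 20 without a filter, and 0 and 1 with unscaled TPM. It passed upwards for 321 with FPKM not rescaled, and over the fits without 1 library for 21 to 662 upwards and 63 to 640 downwards. For IL-2 in stimulated cells 1599 genes were higher and 1045 lower, against 875 and 325 with both relabelled libraries left out, 1015 and 488 with those groups fitted alone, 1941 lower with the block, 1065 higher without a filter and 58 lower with unscaled TPM. Leaving out 1 library gave as few as 1015 higher and 412 lower, both without the third TB+ IL-2 library.

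With unscaled TPM, genes that rose and fell numbered 1220 and 1430 and not 2156 and 2773 with IL-2 in unstimulated cells, 934 and 1500 and not 1471 and 2901 on PMA/I with IL-2, and 1302 and not 2501 rose on PMA/I without it. Then 1 member fell on PMA/I with IL-2, 0 fell for IL-2 in stimulated cells, and 0 passed in the interaction. Of the other pathway genes 1 fell with IL-2 in unstimulated cells, 0 fell on PMA/I with IL-2, 6 rose on PMA/I without IL-2, 0 fell for IL-2 in stimulated cells, and 0 passed in the interaction. In stimulated cells the IL-2 difference turned for Amd1 (0.01), Srm (0.06), Sms (0.21), Azin1 (0.36) and the sum of Amd1 and Amd2 (0.01). The interaction of Oaz1 turned to 0.40 and its sum on PMA/I without IL-2 to -0.44. With quantile normalization, 1 member and 1 other gene fell on PMA/I with IL-2, where 46.4% and not 33.6% of all calls were upwards, and 3 other genes fell on PMA/I without IL-2, where 43.5% and not 32.8% were. Sms passed with IL-2 in unstimulated cells (0.55). The interaction of Oaz1 (0.25), Oaz2 for IL-2 in stimulated cells (-0.04) and the Oaz1 sum with IL-2 in unstimulated cells (-0.11) and on PMA/I without IL-2 (-0.50) turned.

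Without a filter on low values, genes that fell on PMA/I numbered 1209 and not 2901 with IL-2 and 3032 and not 5113 without it (59.6% and 52.5% of calls upwards), 0 members fell on PMA/I with IL-2 and 0 passed in the interaction, and Oaz1 turned to 0.22 and 0.44 on PMA/I with and without IL-2 and Oaz2 to -0.04 for IL-2 in stimulated cells, while the Oaz1 sum on PMA/I without IL-2 passed (0.57, adjusted P = 0.0497). Srm on PMA/I with IL-2 passed with FPKM not rescaled (1.18), with short non-coding RNAs left out (1.26) and with a variance trend (1.25). With short non-coding RNAs left out, 1 member fell on PMA/I with IL-2, 0 were higher in the interaction, and Oaz1 on PMA/I without IL-2 was 0.02. At a pseudocount of 0.1 or 0.5, 0 members were higher in the interaction. With the compared groups fitted alone, 1 member fell on PMA/I with IL-2 and 0 fell for IL-2 in stimulated cells. With Amd1 and Oaz1 summed with their copies, 1 fell on PMA/I with IL-2.

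Leaving out 1 library at a time, the number of members that fell was 0 to 2 on PMA/I with IL-2 and 0 to 2 for IL-2 in stimulated cells, and the interaction had 0 to 1 higher and 0 to 3 lower. Differences that had not passed ranged across 0 for Oaz1 on PMA/I with IL-2 (-0.34 to 0.21) and without it (-0.24 to 0.15) and in the interaction (-0.32 to 0.22), for Oaz2 (-0.09 to 0.18) and Azin1 (-0.14 to 0.09) for IL-2 in stimulated cells, and for the Oaz1 sum on PMA/I without IL-2 (-0.06 to 0.22). The Oaz1 sum passed for IL-2 in stimulated cells without TB+ IL-2nil replicate 1 (0.59, adjusted P = 0.0381).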
